A study of Mus musculus with 8 samples.

Results

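The genes described here encode the route from glucose to pyruvate, its exits to lactate and to the mitochondrion, and the pentose phosphate branch with its NADPH supply. The list names 38 genes, and 37 of them were found by symbol among the 25485 genes of the size-factor-scaled table and joined by Ensembl identifier to the raw counts. *Eno2* has no row in the scaled table and was taken from the count table, which lists 53801 genes. RNA was sequenced from sorted *Lgr5*-GFP+ intestinal stem cells of 8 mice, 4 labelled β-catGOF; Mll1-/- and 4 labelled β-catGOF; Mll1+/-, with 1 library per mouse. All mice carry *Lgr5*-EGFP-IRES-CreERT2 and a stabilized β-catenin allele that lacks the third exon, so both genotypes have active β-catenin and differ in whether 1 or both copies of Mll1 are deleted. The *Lgr5* promoter drives the tamoxifen-dependent Cre, so recombination starts in the stem cells. Mice were 4 to 6 weeks old, received 50 mg/kg tamoxifen on 3 consecutive days and were taken 10 days after induction. No wildtype library was analysed here, so every difference below is between sorted cells labelled β-catGOF; Mll1-/- and sorted cells labelled β-catGOF; Mll1+/-.

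Glycolysis splits glucose into pyruvate and yields ATP without oxygen. Pyruvate then leaves as lactate or enters the mitochondrion, where pyruvate dehydrogenase turns it into acetyl-CoA, and pyruvate dehydrogenase kinases switch that enzyme off. The pentose phosphate branch takes glucose 6-phosphate aside to make NADPH and the ribose of nucleotides. In the crypt, *Lgr5*+ stem cells are known for high mitochondrial activity beside glycolytic Paneth cells, and Mll1 is a histone H3K4 methyltransferase whose CXXC domain binds unmethylated CG pairs.

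Libraries held 14468751 to 16847793 counts in genes, of which 17.1 to 27.1% were mitochondrially encoded in the Mll1-/- and 23.3 to 30.1% in the Mll1+/- libraries. The TMM scaling factors were 1.003 to 1.126 and 0.864 to 0.995 and did not overlap between the genotypes. Going by the library numbers in the count table, the libraries form 2 runs with 2 of each genotype, J_7075, J_7096, J_7079 and J_7100 in run 1 and the rest in run 2. A run here is a stretch of consecutive library numbers, and no label says that it was a batch. Library J_7135 (Mll1-/-) stood apart: its highest Spearman correlation with any other library was 0.909, against at least 0.947 for each of the others. It held *Xist* at 208 CPM together with Y-linked transcripts, with *Eif2s3y* at 99.5, *Kdm5d* at 36.3 and *Ddx3y* at 19.8 CPM, where the other libraries with Y-linked transcripts held 0 to 2.84 CPM of *Xist*. *Eif2s3y* was at 154, 152 and 99.5 CPM in 3 Mll1-/- libraries and at 173 CPM in 1 Mll1+/- library, and at 0.0657 CPM or below in the other 4. Sex is not labelled, J_7135 is counted as 1 mouse as its label has it, and the part of sex in the values below was not tested. In run 1 both Mll1-/- libraries held Y-linked transcripts and both Mll1+/- libraries held *Xist* without them. Sex and genotype therefore cannot be told apart within run 1, and every run 1 estimate below has this limit. *Kmt2a*, which encodes Mll1, was at 53.5 to 78.5 CPM (counts scaled to library size) in the Mll1-/- libraries and at 48.9 to 64.9 CPM in the Mll1+/- libraries. Counts cover the whole gene, so they do not check the deletion, and the genotypes below are those of the labels. The stem cell gene *Lgr5* was at 261 ± 19.9 CPM and 271 ± 41.0 CPM (SD, n = 4 each), so the marker of the sort was present in both genotypes. The sum of 12 stem cell markers, most of it *Olfm4*, did not overlap, at 11012 to 17455 CPM in Mll1-/- and 23300 to 27779 CPM in Mll1+/- libraries. In that list *Olfm4*, *Slc12a2* and *Prom1* had log2 fold changes of -0.77, -0.87 and -0.53 and *Axin2* of 0.44 (adjusted p = 0.200, 0.151, 0.372 and 0.384), and the median of the 12 genes was -0.04. The summed level of 10 goblet cell markers was 732 to 1292 CPM in Mll1-/- and 617 to 822 CPM in Mll1+/- libraries. The sum of 10 Paneth cell markers was 1385 to 2609 CPM and 2027 to 4895 CPM, of 10 enterocyte markers 583 to 863 CPM and 743 to 847 CPM, and of 8 proliferation genes 1405 to 1702 CPM and 963 to 1419 CPM. Markers of other types were sparse: the 10 enteroendocrine genes summed to 7.36 to 10.4 CPM and 11.2 to 78.5 CPM, the 8 tuft genes to 0.974 to 8.22 CPM and 0.968 to 2.89 CPM, and the 8 leukocyte genes to 1.24 to 4.23 CPM and 3.62 to 7.06 CPM. Of all these markers 1, the tuft gene Il25, was at 0 in every library. The part of these cell type differences in the values below was not tested, and in such bulk samples fewer cells of a type and less RNA per cell cannot be told apart.

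In Mll1-/- stem cells the summed level of the 5 listed pentose phosphate and NADPH genes was 1.49 times that of Mll1+/- stem cells. In a separate list, 11 further tested genes of pentose phosphate, NADPH and ribose phosphate supply had a median log2 fold change of -0.11. The glucose transporter *Slc2a1* was at a fitted 1.91 times the Mll1+/- level. The pyruvate dehydrogenase kinase *Pdk1* and the pyruvate carrier subunit *Mpc2* were lower, at 0.625 and 0.83 times the Mll1+/- level. No gene of the list passed an adjusted p of 0.1 (edgeR quasi-likelihood test, 36 genes tested), a threshold that 14 of 16445 genes or 0.0851% passed. At an unadjusted p under 0.05 (edgeR), there were 5 of the 36 genes or 13.9%, beside 9.15% of all genes. *Slc2a1*, *Pkm*, *Taldo1* and *G6pdx* were the 4 on the higher side, where the share of all genes is 5.4%, and *Pdk1* was the 1 on the lower side, where it is 3.75%. For 5 genes or 13.9% every library of a genotype lay on one side of the other, beside 6.28% of all genes: *Slc2a1*, *Pkm* and *Taldo1* were higher in every Mll1-/- library (3.34% of all genes) and *Pdk1* and *Mpc2* were lower in every one (2.94%). DESeq2 gave an adjusted p under 0.1 for 3 of the 36 genes, *Slc2a1*, *Taldo1* and *Pdk1*, that is 8.33% beside 2.47% of all genes. On simulated counts of this design DESeq2 made more false calls than its threshold allows and edgeR did not. The false share of calls was 38.69% for DESeq2 and 5.81% for edgeR. Those counts were drawn 1 time with dispersions taken from the edgeR fit, so the shares hold for that setting only. Of the genes given a log2 fold change of 1 in those counts, edgeR recovered 20.8% and DESeq2 37.5%. A gene of the list that did not pass in edgeR can therefore still differ by that much. The median log2 fold change of the 36 genes was 0.05, beside 0.01 for all genes tested, with 21 estimates above 0 and 15 below. The list was chosen with earlier results of these data known, so these shares describe it and do not test it.

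**Figure D1:**
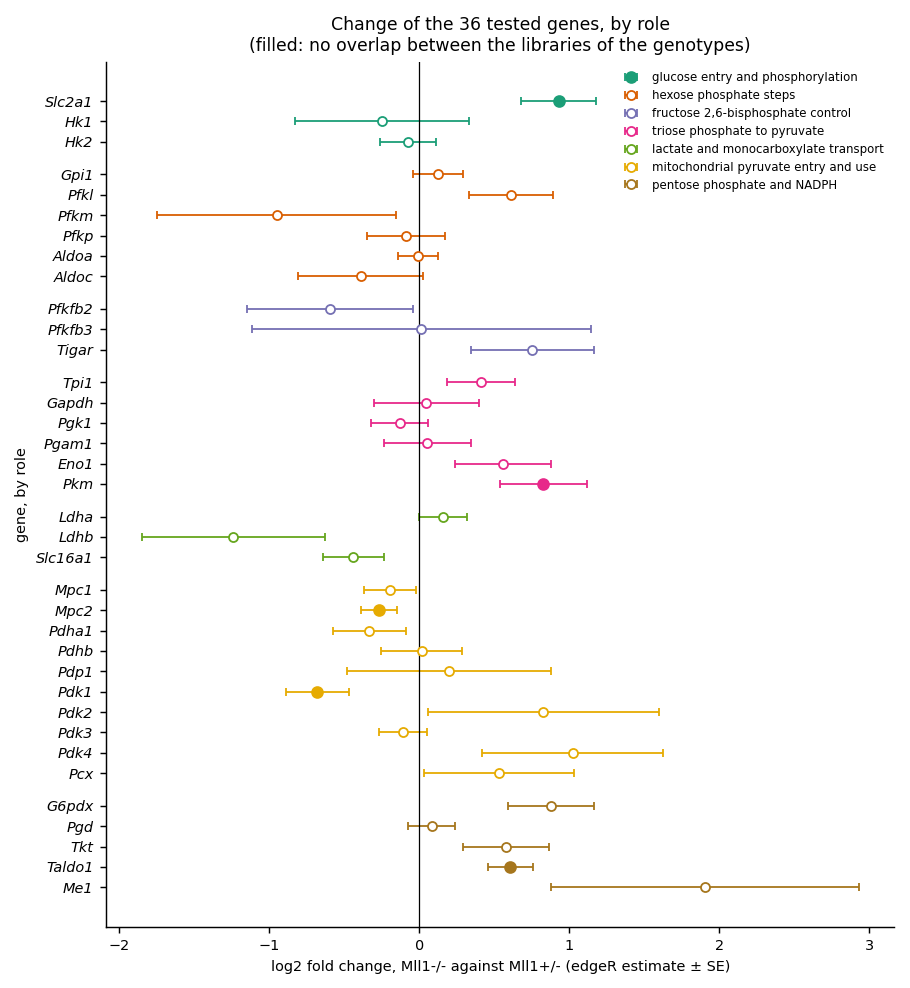
The horizontal axis gives the edgeR log2 fold change of Mll1-/- against Mll1+/- libraries with its standard error for each of the 36 tested genes, coloured and stacked by role; filled points mark genes whose libraries did not overlap between genotypes. All 5 genes of the pentose phosphate and NADPH role lie right of 0, from *Pgd* at 0.08 to *Me1* at 1.90 with their widest bar. The 5 filled points are *Slc2a1*, *Pkm*, *Mpc2*, *Pdk1* and *Taldo1*.

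The 250 bases before the start site are shown for *Slc2a1*, *Taldo1* and *Pdk1*, the 3 genes with the lowest unadjusted p in edgeR among those without overlap, picked after their values were seen, since Mll1 is known to act at promoters. The sequences are from RefSeq (GRCm38.p6), written 5′ to 3′ along the gene, and lie on the + strand at chr4:119108495-119108744, chr7:141391910-141392159 and chr2:71872974-71873223. Capitals mark matches on either strand to CACGTG, the E-box of Myc and related factors, to ACGTG, the core of the hypoxia response element, which overlaps that E-box, or to CTTTGAT, a core of the TCF/LEF sites through which β-catenin acts.
Slc2a1: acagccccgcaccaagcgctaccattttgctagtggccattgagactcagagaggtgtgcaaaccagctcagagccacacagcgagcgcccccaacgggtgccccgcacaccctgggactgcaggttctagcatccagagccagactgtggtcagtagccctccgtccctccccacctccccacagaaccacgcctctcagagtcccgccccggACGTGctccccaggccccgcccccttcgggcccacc
Taldo1: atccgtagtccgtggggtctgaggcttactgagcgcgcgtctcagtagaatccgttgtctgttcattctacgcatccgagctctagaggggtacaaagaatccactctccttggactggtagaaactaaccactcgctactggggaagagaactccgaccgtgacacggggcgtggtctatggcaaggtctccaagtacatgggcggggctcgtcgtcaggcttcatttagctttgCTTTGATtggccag
Pdk1: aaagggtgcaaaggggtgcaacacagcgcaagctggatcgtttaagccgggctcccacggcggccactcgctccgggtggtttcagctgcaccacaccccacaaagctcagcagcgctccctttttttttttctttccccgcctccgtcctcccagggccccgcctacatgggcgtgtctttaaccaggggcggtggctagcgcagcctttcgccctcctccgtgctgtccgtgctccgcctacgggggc
The *Slc2a1* window held 1 ACGTG, the *Taldo1* window held 1 CTTTGAT close to its end, and the *Pdk1* window held none of the 3 motifs. ACGTG occurred in 13 of the 37 matched windows of the list (35.1%) and in 16.6% of all 32851 promoter windows of this length. CACGTG occurred in 5 of them (13.5%, against 6.02% of all windows), namely those of *Pfkm*, *Ldha*, *Slc16a1*, *Pdk2* and *Pcx*. CTTTGAT occurred in the windows of *Tigar* and *Taldo1* (5.41%, against 3.21%). The windows were rich in CG pairs: the median was 16 in the list against 6 over all windows, with 13 in the *Slc2a1* window, 16 in that of *Taldo1* and 19 in that of *Pdk1*. More than 10 CG pairs were counted in 28 windows of the list (75.7%), against 35.6% of all windows. For the list 1 window was taken per gene, while all windows hold several for some genes and were not limited to genes expressed here. ACGTG and CACGTG each hold a CG pair, and the windows of the list held more CG pairs. The part of CG content and of the choice of windows in these shares was not tested. A match is a description of these letters and not of binding.

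Values per library are given below in 1 order of mice, J_7075, J_7096, J_7135 and J_7136 for Mll1-/- and J_7079, J_7100, J_7134 and J_7139 for Mll1+/-. Differences are log2 fold changes of Mll1-/- against Mll1+/- with their standard errors, and adjusted p-values are from edgeR with Benjamini-Hochberg adjustment over all genes tested. Levels of different genes are compared only in CPM per kb of exon, and gene positions are those of the count table on mm10.

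Of the 7 roles, the pentose phosphate and NADPH genes had the highest ratio of summed levels between the genotypes under each of 3 scalings. The 5 genes summed to 579, 452, 675 and 468 CPM in the Mll1-/- libraries and to 350, 364, 346 and 395 CPM in the Mll1+/- libraries. The lowest Mll1-/- library was above the highest Mll1+/- library, and the mean of 543 ± 105 CPM was 1.49 times that of 364 ± 22.1 CPM (SD, n = 4 each). This was the only one of the 7 roles whose sums did not overlap, and it remained so with CPM taken by total counts (a ratio of 1.71) and with mitochondrially encoded counts left out (1.58). The median log2 fold change of the 5 genes was 0.61, beside 0.01 for all genes. Much of the summed level was *Taldo1*, with means of 306 CPM in Mll1-/- and 201 CPM in Mll1+/- libraries. *Tkt* held 138 and 92.1 CPM, *Pgd* 46.7 and 44.0 CPM, *G6pdx* 45.0 and 24.5 CPM, and *Me1* 7.85 and 2.09 CPM. A separate list held 13 further genes of pentose phosphate, NADPH and ribose phosphate supply. Of the 11 tested, 4 had estimates above 0 and 7 below, none had an unadjusted p under 0.05 (edgeR), and the median was -0.11. Among them were *Pgls* at 0.14, *H6pd* at 0.04, *Rpia* at -0.11 and *Rpe* at -0.44, the lactonase, the reticular dehydrogenase, the isomerase and the epimerase of the pathway.

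*Taldo1* (ENSMUSG00000025503, chromosome 7, 141392199 to 141402968) encodes transaldolase of the non-oxidative arm and had the highest level per length of the whole list, 117 CPM per kb. It was at 370, 259, 341 and 255 CPM in the Mll1-/- libraries and at 188, 202, 182 and 233 CPM in the Mll1+/- libraries. Every Mll1-/- library exceeded every Mll1+/- library. The log2 fold change was 0.61 ± 0.15 (95% interval 0.27 to 0.95, unadjusted p = 0.00284, adjusted p = 0.252, edgeR), and the estimates within runs 1 and 2 of the library numbers were 0.70 and 0.52. With 1 annotated pseudogene that shares its sequence added, the difference of mean log2 levels was 0.60, against 0.59 without it.

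*G6pdx* (ENSMUSG00000031400, chromosome X, 74409483 to 74429194) encodes glucose-6-phosphate dehydrogenase, the entry and rate-limiting step of the oxidative arm. It was at 42.2, 49.0, 65.3 and 23.5 CPM in the Mll1-/- libraries and at 25.5, 22.4, 21.3 and 28.7 CPM in the Mll1+/- libraries. In 3 Mll1-/- libraries it was above every Mll1+/- library, and these 3 held Y-linked transcripts. J_7136, the Mll1-/- library without such transcripts, lay among the Mll1+/- libraries. J_7134, the Mll1+/- library with them, held the lowest value, 21.3 CPM. The log2 fold change of *G6pdx* was 0.88 ± 0.29 (95% interval 0.24 to 1.52, unadjusted p = 0.0125, adjusted p = 0.429, edgeR). Runs 1 and 2 alone gave 0.93 and 0.82. *G6pdx* is X-linked, and the X-inactivation transcript *Xist* was unequal between the mice, at 0.649, 2.84, 208 and 759 CPM in Mll1-/- and at 523, 517, 0 and 404 CPM in Mll1+/- libraries. With the *Xist* level as a covariate, *G6pdx* remained among the genes with an unadjusted p under 0.05 (edgeR). That fit cannot settle the part of sex, since J_7135 held both *Xist* and Y-linked transcripts and in run 1 *Xist* followed genotype. The part of sex in the *G6pdx* values was not tested. The other X-linked genes of the list, *Pgk1*, *Pdha1* and *Pdk3*, had log2 fold changes of -0.13, -0.33 and -0.11 (adjusted p = 0.880, 0.730 and 0.886).

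*Tkt*, the transketolase of the non-oxidative arm, was at 138 ± 65.6 CPM in Mll1-/- and 92.1 ± 5.43 CPM in Mll1+/- libraries (SD, n = 4 each), a log2 fold change of 0.58 ± 0.28 (adjusted p = 0.583). Library J_7135 held its highest value, 230 CPM, and without that library the log2 fold change was 0.21. *Pgd*, which makes the second NADPH of the oxidative arm, was nearly level at 46.7 ± 7.11 and 44.0 ± 2.52 CPM, with a 95% interval of the log2 fold change from -0.26 to 0.43. *Me1*, the cytosolic malic enzyme and another source of NADPH, was at 9.32, 11.6, 0.0541 and 10.4 CPM in Mll1-/- and 0.778, 3.52, 0.962 and 3.10 CPM in Mll1+/- libraries. In 3 Mll1-/- libraries *Me1* was above every Mll1+/- library, and J_7135 held 1 count of it. The log2 fold change of *Me1* was 1.90 ± 1.02 (adjusted p = 0.624), and its libraries did not overlap once J_7135 was left out.

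**Figure D2:**
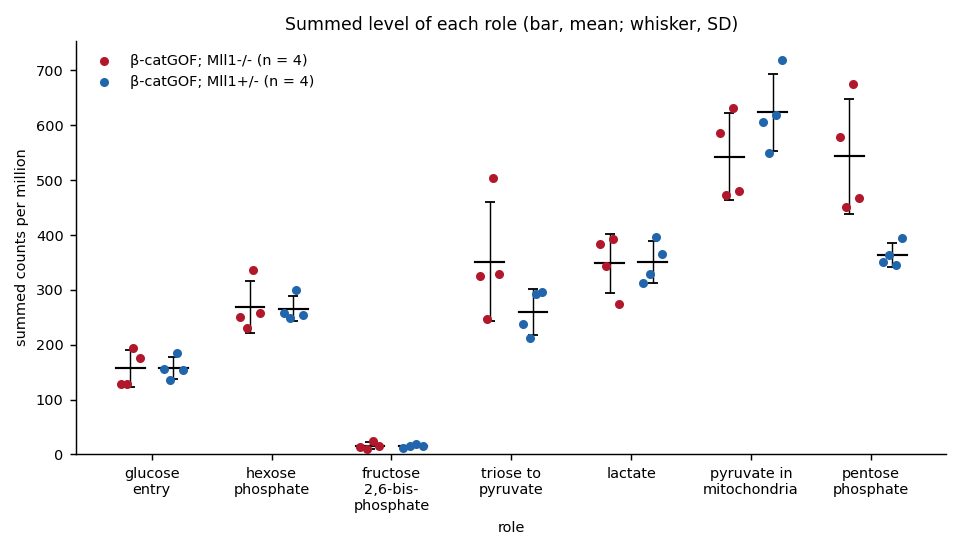
The vertical axis gives the summed CPM of the genes of each of the 7 roles in every library (points), with the mean and SD of 4 libraries a genotype. The pentose phosphate and NADPH sums are 452 to 675 CPM in Mll1-/- and 346 to 395 CPM in Mll1+/- libraries. The sums of the other 6 roles overlap between genotypes.

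Glucose enters through *Slc2a1* (GLUT1; ENSMUSG00000028645, chromosome 4, 119108711 to 119137983) and is trapped by hexokinases. *Slc2a1* was at 18.5, 12.7, 13.03 and 16.2 CPM in the Mll1-/- libraries and at 10.2, 7.87, 6.02 and 7.55 CPM in the Mll1+/- libraries. All 4 Mll1-/- libraries exceeded all 4 Mll1+/- libraries. A log2 fold change of 0.93 ± 0.25 corresponds to 1.91-fold (95% interval 0.37 to 1.49, unadjusted p = 0.0041, adjusted p = 0.298, edgeR), and leaving out any 1 library gave 0.81 to 1.08. Within runs 1 and 2 the estimates were 0.79 and 1.10.

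Hexokinase was almost wholly *Hk2*, at 24.3 CPM per kb against 0.0768 CPM per kb for *Hk1*. *Hk2* was at 109, 116, 181 and 159 CPM in the Mll1-/- libraries and at 145, 127, 178 and 145 CPM in the Mll1+/- libraries. Values of the genotypes were interleaved, with a log2 fold change of -0.08 ± 0.19 (adjusted p = 0.936, 95% interval -0.49 to 0.34). *Hk1* held 6 to 18 counts a library, too few to show a change of moderate size, with a 95% interval from -1.55 to 1.05.

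Among the hexose phosphate steps, none of the 6 genes passed an unadjusted p of 0.05 (edgeR) and none was free of overlap. *Aldoa*, the main aldolase and the most abundant of them at 46.0 CPM per kb, was at 138, 119, 152 and 125 CPM in Mll1-/- and at 125, 120, 158 and 133 CPM in Mll1+/- libraries. The levels were alike in both genotypes, and the 95% interval of the log2 fold change was -0.30 to 0.29. The brain-type aldolase *Aldoc* was at 16.9 ± 10.4 CPM against 22.1 ± 9.07 CPM (SD, n = 4 each), where J_7135 held 32.4 CPM of it against 11.01 to 13.004 CPM in the other 3 Mll1-/- libraries. *Gpi1*, the glucose phosphate isomerase, was at 83.7 ± 18.1 and 76.8 ± 6.29 CPM. The phosphofructokinases catalyse the committed step. The liver-type *Pfkl* was at 17.5 ± 5.69 and 11.4 ± 2.53 CPM (log2 fold change 0.61 ± 0.28, adjusted p = 0.557), the platelet-type *Pfkp* at 13.98 ± 4.26 and 14.9 ± 2.41 CPM, and the muscle-type *Pfkm* at 3.01 ± 2.50 and 5.82 ± 2.01 CPM. *Pfkm* had 2 counts in J_7135 and 39 to 122 counts in the other 7 libraries.

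3 genes set or remove the allosteric activator of phosphofructokinase, and all were low. *Tigar*, a phosphatase that lowers that activator and is a known p53 target, was the highest of them per length at 1.80 CPM per kb. It was at 5.19, 4.58, 11.5 and 11.8 CPM in Mll1-/- and at 3.65, 3.59, 5.86 and 6.52 CPM in Mll1+/- libraries. Within each run both Mll1-/- values of *Tigar* exceeded both Mll1+/- values, and the within-run log2 fold changes were 0.44 and 0.91 (0.76 ± 0.41 over all libraries, adjusted p = 0.627). *Pfkfb2* was at 5.59 ± 4.99 and 8.46 ± 1.02 CPM and *Pfkfb3* at 2.07 ± 1.92 and 2.06 ± 1.58 CPM (SD, n = 4 each), with 95% intervals of the log2 fold change of -1.84 to 0.65 and -2.52 to 2.55.

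From triose phosphate to pyruvate, 5 of the 6 tested genes had estimates above 0 and their median log2 fold change was 0.23, beside 0.01 for all genes. *Pkm* (ENSMUSG00000032294, chromosome 9, 59656368 to 59679375), the pyruvate kinase of proliferating cells and muscle, was at 42.8, 40.9, 103 and 66.7 CPM in the Mll1-/- libraries and at 35.1, 39.9, 32.7 and 35.3 CPM in the Mll1+/- libraries. The genotypes did not overlap, but J_7096 was only just above J_7100. The log2 fold change of *Pkm* was 0.83 ± 0.29 (unadjusted p = 0.0176, adjusted p = 0.463, edgeR), with 0.16 within run 1 and 1.32 within run 2. Without J_7135 it was 0.49. Gene counts do not separate its M1 and M2 splice forms.

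*Tpi1*, the triose phosphate isomerase, had the highest level of this stretch at 69.2 CPM per kb. It was at 209, 151, 298 and 212 CPM in Mll1-/- and at 137, 124, 198 and 194 CPM in Mll1+/- libraries. Within each run the Mll1-/- libraries were above the Mll1+/- libraries, and across runs the values overlapped, with a log2 fold change of 0.41 ± 0.23 (adjusted p = 0.634). *Eno1*, the main enolase, was at 32.6 ± 15.9 and 22.1 ± 4.13 CPM (SD, n = 4 each, log2 fold change 0.56 ± 0.32, adjusted p = 0.646). *Pgk1* was at 16.9 ± 2.06 and 18.5 ± 2.02 CPM and *Pgam1* at 14.9 ± 5.61 and 14.4 ± 1.49 CPM. The neuronal enolase *Eno2* had 0 to 2 counts a library, at or under the floor of 3 counts (0.162 to 0.241 CPM), and was not tested.

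*Gapdh*, usually among the most abundant transcripts of any cell, was counted at only 5.65 ± 1.93 and 5.47 ± 1.27 CPM (SD, n = 4 each), or 1.34 CPM per kb. Of the 31-base words in its protein-coding transcripts, 62.6% occur in other annotated genes, and 133 genes share at least 100 words with it, 125 of them pseudogenes. *Pgk1* shares 68.3% of its words, *Eno1* 53.5% and *Pgam1* 42.1%, while *Slc2a1* shares 2.11%. When the counts of 124 *Gapdh* pseudogenes were added, the level became 31.8 and 23.3 CPM, the genotypes no longer overlapped and the difference of mean log2 levels went from 0.01 to 0.42, a sum made after the values were seen. The counts of *Pgk1* with its 2 pseudogenes were 25.0 and 27.5 CPM, those of *Pgam1* with 2 were 17.2 and 16.7 CPM, and those of *Eno1* with 3 were 37.0 and 25.8 CPM. The levels of these genes are therefore uncertain. The paper counted uniquely mapped reads, so reads that match more than 1 gene could be missing from the counts. Adding pseudogene counts does not restore such reads, and these sums are not corrected levels. For *Pkm* the addition of 5 pseudogenes left the groups apart with a difference of 0.71 in place of 0.72.

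**Figure D3:**
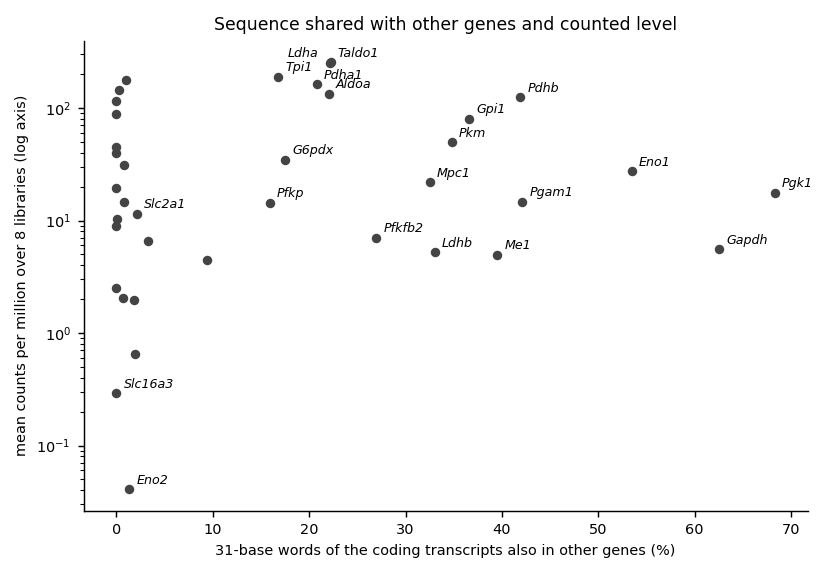
The horizontal axis gives the share of 31-base words in the protein-coding transcripts of each gene that also occur in other genes, and the vertical log axis gives its mean level over 8 libraries in CPM. *Gapdh* sits at 62.6% and 5.56 CPM and *Pgk1* at 68.3% and 17.7 CPM, whereas *Slc2a1* lies near the left edge at 11.5 CPM.

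Lactate production rests on *Ldha*, with 77.3 CPM per kb against 3.32 CPM per kb for the heart-type subunit *Ldhb*. *Ldha* was at 302, 242, 313 and 223 CPM in Mll1-/- and at 207, 212, 291 and 258 CPM in Mll1+/- libraries. Here the genotypes overlapped, with an estimate of 0.16 ± 0.16 (adjusted p = 0.811, 95% interval -0.20 to 0.51). *Ldhb* was at 3.10 ± 2.65 and 7.33 ± 2.21 CPM (SD, n = 4 each), a log2 fold change of -1.24 ± 0.61 (adjusted p = 0.586), and without J_7135, its highest Mll1-/- library, it was -1.96. *Slc16a1* (MCT1) and *Slc16a3* (MCT4) carry lactate across the membrane. *Slc16a1* was at 80.0, 99.9, 72.3 and 47.6 CPM in Mll1-/- and at 97.4, 113, 95.6 and 100.1 CPM in Mll1+/- libraries. Only J_7096 of the Mll1-/- libraries reached the Mll1+/- range, and the log2 fold change was -0.44 ± 0.21 (adjusted p = 0.564). *Slc16a3* had 10, 18, 1 and 3 counts in Mll1-/- and 4, 2, 0 and 1 counts in Mll1+/- libraries and was not tested.

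In the mitochondrion, *Pdk1* (ENSMUSG00000006494, chromosome 2, 71873224 to 71903858) inhibits pyruvate dehydrogenase by phosphorylation. It was at 30.7, 20.7, 26.7 and 17.6 CPM in the Mll1-/- libraries and at 41.2, 32.8, 41.9 and 37.4 CPM in the Mll1+/- libraries. All 4 Mll1-/- libraries were below all 4 Mll1+/- libraries. The estimate for *Pdk1* was -0.68 ± 0.21 (95% interval -1.15 to -0.21, unadjusted p = 0.00924, adjusted p = 0.393, edgeR), and runs 1 and 2 alone gave -0.52 and -0.85. Of the other kinases, *Pdk3* was the highest per length at 15.4 CPM per kb and was at 38.1 ± 5.52 and 41.0 ± 3.57 CPM (SD, n = 4 each). *Pdk2* was at 2.49 to 5.39 CPM in 3 Mll1-/- libraries, at 34.3 CPM in J_7135 and at 4.97 to 7.70 CPM in Mll1+/- libraries. Its log2 fold change was 0.83 ± 0.77 with J_7135 and -0.78 without it. *Pdk4* was at 2.65 ± 1.08 and 1.31 ± 0.850 CPM, with a 95% interval of the log2 fold change from -0.33 to 2.38.

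*Mpc1* and *Mpc2* form the pyruvate carrier of the inner membrane. *Mpc2* (ENSMUSG00000026568, chromosome 1, 165460637 to 165481214) was at 187, 161, 133 and 165 CPM in Mll1-/- and at 188, 195, 208 and 188 CPM in Mll1+/- libraries. The genotypes did not overlap, though J_7075, at 186.6 CPM, was next to J_7079, at 187.5 CPM, and with CPM taken by total counts 4 genes of the list in place of 5 were free of overlap. For *Mpc2* the log2 fold change was -0.27 ± 0.12 (unadjusted p = 0.0521, adjusted p = 0.555, edgeR). *Mpc1* was at 20.4 ± 0.871 and 23.4 ± 3.36 CPM (log2 fold change -0.19 ± 0.17). Its annotated pseudogene, which shares part of its sequence, held 51.4 CPM. With that pseudogene added the levels were 66.8 and 79.7 CPM, the genotypes no longer overlapped and the difference of mean log2 levels was -0.25 in place of -0.18, so the level of *Mpc1* and its ratio to *Mpc2* are uncertain.

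The E1 subunits of pyruvate dehydrogenase were *Pdha1*, at 43.8 CPM per kb the highest of the mitochondrial genes, and *Pdhb*. *Pdha1* was at 144, 131, 215 and 89.1 CPM in Mll1-/- and at 181, 164, 160 and 223 CPM in Mll1+/- libraries. With J_7135 the groups overlapped and without it they did not, with log2 fold changes of -0.33 ± 0.24 and -0.59. *Pdhb* was at 126 ± 33.8 and 125 ± 42.0 CPM, the phosphatase *Pdp1* at 11.02 ± 7.57 and 9.59 ± 2.23 CPM, and pyruvate carboxylase *Pcx*, which feeds oxaloacetate, at 2.95 ± 1.49 and 2.03 ± 0.714 CPM (SD, n = 4 each). Of the 10 genes of this role 5 had estimates above 0 and 5 below.

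**Figure D4:**
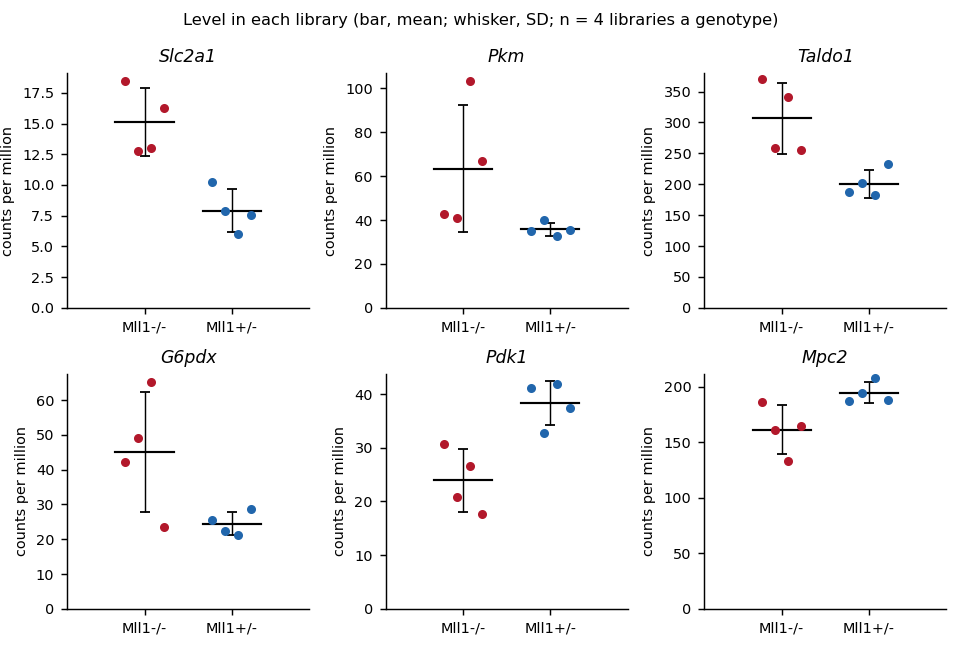
Each panel gives the CPM of 1 gene in every library (points, red for Mll1-/- and blue for Mll1+/-) with the mean and SD of 4 libraries. *Slc2a1*, *Pkm* and *Taldo1* lie higher and *Pdk1* and *Mpc2* lower in all Mll1-/- libraries, and *G6pdx* overlaps in the library at 23.5 CPM.

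To compare related genes within a library, 10 pairs were taken as log2 ratios of CPM per kb. A prior of 0.5 CPM was added to each gene, so ratios with a low gene (*Hk1*, *Eno2*, *Slc16a3*, *Ldhb* or *Pfkm*) still depend on the scaling and the prior. Each ratio was tested with an exact two-sided permutation test over the 70 assignments of 8 libraries. The smallest p this design allows is 0.0286, and with adjustment over the 10 pairs no ratio passed 0.05. *Pdk1* to *Pdk3* gave -2.11, -2.22, -2.22 and -2.57 in Mll1-/- and -1.68, -1.73, -1.65 and -1.74 in Mll1+/- libraries. The groups did not overlap (difference -0.58, exact p = 0.0286, adjusted p = 0.143). *Pdk1* thus made up 14.4 to 18.8% of the summed level per kb of the pair in Mll1-/- and 23.0 to 24.1% in Mll1+/- libraries. *Pdk3*, the other gene of that pair, was at 44.0, 32.1, 41.3 and 34.8 CPM in Mll1-/- and at 43.4, 35.9, 43.4 and 41.3 CPM in Mll1+/- libraries, and its values overlapped.

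*Slc16a1* to *Slc16a3* gave 6.47, 6.29, 7.30 and 6.37 in Mll1-/- and 7.31, 7.74, 7.85 and 7.74 in Mll1+/- libraries (difference -1.05, exact p = 0.0286, adjusted p = 0.143). Since *Slc16a3* had 0 to 18 counts, the size of this ratio is set by the prior, and it was -1.67 with a prior of 0.1 CPM. *Ldha* to *Ldhb* differed by 1.53 (exact p = 0.0571, adjusted p = 0.143), with 5.45 ± 1.11 in Mll1-/- and 3.91 ± 0.343 in Mll1+/- libraries (SD, n = 4 each), and only 1 Mll1-/- library lay within the Mll1+/- range. *Pfkl* to *Pfkm* differed by 1.79 (exact p = 0.0571, adjusted p = 0.143), and the ratio of 4.42 in J_7135 rests on its 2 counts of *Pfkm*. The other 6 pairs had exact p-values from 0.114 to 0.8, among them *Hk2* to *Hk1* with 7.55 ± 0.677 and 7.48 ± 0.135, *Aldoa* to *Aldoc* with 3.26 ± 0.610 and 2.81 ± 0.404, and *Mpc1* to *Mpc2* with -1.12 ± 0.196 and -1.22 ± 0.246.

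**Figure D5:**
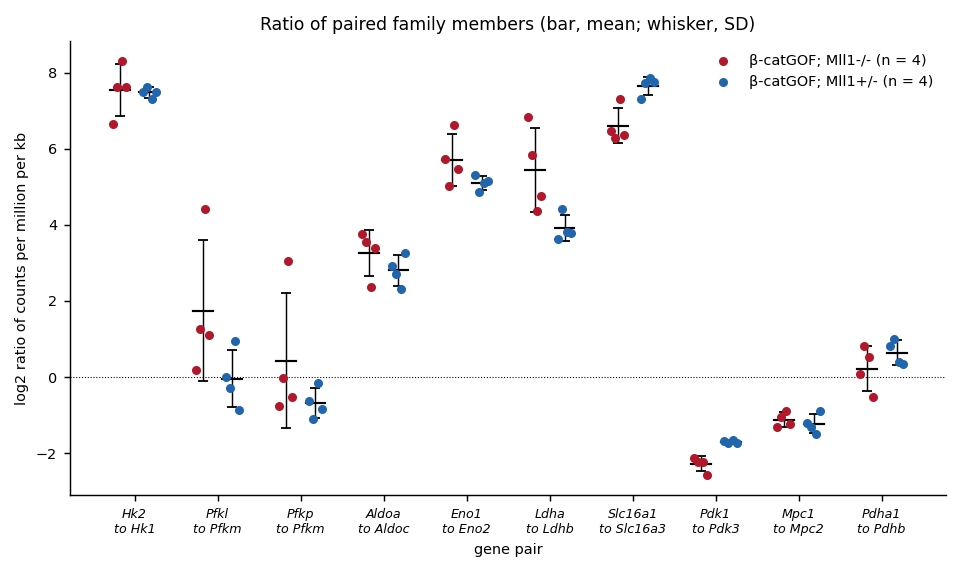
The vertical axis gives the log2 ratio of CPM per kb of the first to the second gene of each pair in every library (points), with the mean and SD of 4 libraries a genotype. The *Pdk1* to *Pdk3* ratios lie between -2.57 and -2.11 in Mll1-/- and between -1.74 and -1.65 in Mll1+/- libraries, and the *Hk2* to *Hk1* ratios overlap around 7.5.

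The spread between mice was larger in the Mll1-/- genotype. The median coefficient of variation over the 36 tested genes was 35.1% (range 4.26 to 135%) in Mll1-/- and 16.4% (range 4.77 to 76.6%) in Mll1+/- libraries, and it was 24.9% in Mll1-/- libraries without J_7135. J_7135 held the highest value of 8 libraries for 15 genes of the list (41.7%) and the lowest for 7 (19.4%), where over all genes tested it was highest for 24.4% and lowest for 26.3%. Without J_7135, 10 genes of the list (27.8%) were free of overlap beside 9.86% of all genes. Leaving out a library can add genes without overlap but remove none. The 38 genes together summed to 2227 ± 388 CPM in Mll1-/- and 2036 ± 168 CPM in Mll1+/- libraries (SD, n = 4 each), a ratio of 1.09, and the values overlapped. Of the summed CPM, 41.2% came from *Ldha*, *Taldo1*, *Tpi1* and *Mpc2*.

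The other genes of these pathways were taken from 8 further lists with 112 genes, of which 97 were tested. None passed the adjusted threshold, and the median log2 fold change was -0.06. At an unadjusted p under 0.05 (edgeR) 5 were higher and 3 lower, where the shares of all genes are 5.4% and 3.75%. Of the 97 genes, 3 were higher and 4 lower without overlap of the libraries, where the shares of all genes are 3.34% and 2.94%. The red cell 2,3-bisphosphoglycerate enzyme *Bpgm* was higher in every Mll1-/- library, at 18.6 to 45.9 CPM against 8.97 to 17.9 CPM (log2 fold change 0.90 ± 0.34, adjusted p = 0.486). *Pck2*, which makes phosphoenolpyruvate in the mitochondrion, was at 58.5 ± 8.64 and 41.4 ± 6.03 CPM, and *Phgdh*, the first step of serine synthesis from a glycolytic intermediate, at 16.8 ± 2.80 and 11.3 ± 2.89 CPM (SD, n = 4 each). In the tricarboxylic acid cycle 14 of 17 estimates were below 0, with *Mdh1* at 505 ± 83.6 and 622 ± 19.6 CPM and *Dlst*, on the other side, at 60.3 ± 14.2 and 43.1 ± 2.32 CPM. Of 11 tested hypoxia response genes none passed an unadjusted p of 0.05 (edgeR) and the median log2 fold change was 0.0046. Among the regulators of glucose use, *Trp53*, which encodes p53, was at 82.9 to 168 CPM in Mll1-/- and 67.9 to 72.1 CPM in Mll1+/- libraries (log2 fold change 0.67 ± 0.22, adjusted p = 0.424). *Nfe2l2*, which encodes the NRF2 activator of pentose phosphate genes, was lower in every Mll1-/- library, at 88.3 to 118 CPM against 125 to 144 CPM (-0.35 ± 0.12, adjusted p = 0.462). *Foxo1* was lower as well, at 17.4 to 25.7 CPM against 26.6 to 39.5 CPM (-0.49 ± 0.20, adjusted p = 0.514).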

How the data were processed

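Smart-seq2 libraries were prepared from sorted EpCAM+ *Lgr5*-GFP+ crypt cells. The authors deposited raw counts per gene, made with GSNAP on mm10 and featureCounts (1.6.3) with Ensembl release 92 genes and a mapping quality of at least 1, and a second table of counts divided by DESeq2 (1.22.2) size factors, a scaled signal used here for gene symbols only. Spike-ins were left out. The members and lists were chosen with earlier results of these data known.

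Counts were fitted with edgeR 4.0.16 (robust quasi-likelihood, TMM, filterByExpr with a minimum count of 10 and total of 15, genotype as the only term), with Benjamini-Hochberg adjustment over 16445 genes and a threshold of 0.1. The script was tested on simulated data. The biological coefficient of variation was 0.435. Levels are TMM-scaled CPM, and CPM per kb uses the exon length of the count table. Ratios used a prior of 0.5 CPM and exact permutation. Alternatives used DESeq2 1.42.0, limma 3.58.1 (voom with library quality weights), other scalings and filters, the library run, the *Xist* level, and each library left out. Shared 31-base words were counted in GENCODE M21 transcripts. Promoters are from RefSeq. Each mouse gave 1 library, so the SDs hold differences between mice and technical error together. All 38 genes are accounted for, with values in every library for those with an unadjusted p under 0.05, without overlap, highest per length in their role, or in a pair with exact p under 0.05.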

Additional observations from a re-analysis of the deposited data

Results flagged for a closer look

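Of 72 sets of 4 libraries (36 genes in each genotype), 3 held a value whose gap to its nearest neighbour, as a share of the range, was above Dixon's 95% critical value, and chance flags about 1 in 20 sets. *Aldoc* was at 32.4 CPM in J_7135 against 11.01 to 13.004 CPM in the other Mll1-/- libraries. *Pdk2* was at 34.3 CPM in J_7135 against 2.49 to 5.39 CPM in the others of that genotype. *Pfkp* was at 18.5 CPM in J_7139 against 13.5 to 13.8 CPM in the other Mll1+/- libraries.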

How the results depend on the processing

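No paired analysis was possible because the labels give no replicate numbers that the genotypes share. The 14 genes called became 47 with no filter on low counts, 34 with at least 10 counts in every library, 406 with DESeq2, 103 with limma-voom and library quality weights together, 0 with a block of the 2 library runs or with the *Xist* level as covariate, and 0 to 45 with 1 library left out. The 0 members called became 3 with DESeq2 (*Slc2a1*, *Taldo1* and *Pdk1*) and remained 0 with each library left out. The 5 members with an unadjusted p under 0.05 became 10 without the filter (8.39% of all genes) or with the block of library runs (9.98%), 9 with DESeq2 (11.2%) or weighted limma-voom (10.7%), and 5 to 11 with a library left out (6.96 to 10.9%). The 5 members without overlap became 5 to 10 with a library left out, where the share of all genes went from 6.28% to 9.08 to 10.9% and counts can only rise. The median log2 fold change of members was 0.05 and went from -0.0600 to 0.160 with a library left out, to 0.17 within the first run and to -0.0646 within the second. The ratio of summed member levels went from 1.09 to 1.25 with CPM by total counts.

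The *Hk2* to *Hk1* difference, 0.07, was -0.0303 with a prior of 2 CPM, -0.43 within the first run and 0.56 within the second. *Ldha* to *Ldhb* was 1.13 with a prior of 2 CPM, where its unadjusted exact permutation p was under 0.05. *Slc16a1* to *Slc16a3* was -1.67 with a prior of 0.1 CPM, where its unadjusted exact permutation p was not. With a library left out, the differences ranged from -0.18 to 0.37 (*Hk2* to *Hk1*), 0.90 to 2.31 (*Pfkl* to *Pfkm*), 0.23 to 1.50 (*Pfkp* to *Pfkm*), 0.29 to 0.75 (*Aldoa* to *Aldoc*), 0.30 to 0.83 (*Eno1* to *Eno2*), 1.08 to 1.89 (*Ldha* to *Ldhb*), -1.28 to -0.94 (*Slc16a1* to *Slc16a3*), -0.64 to -0.49 (*Pdk1* to *Pdk3*), 0.01 to 0.21 (*Mpc1* to *Mpc2*) and -0.61 to -0.16 (*Pdha1* to *Pdhb*).

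Of 571 refitted log2 fold changes of members, 34 changed sign, in 11 of the 36 genes. With limma-voom and quality weights together *Gpi1* was -0.0557, *Pgam1* -0.0256, *Pdhb* -0.0470 and *Pdk2* -0.76. *Pfkfb3* was -0.36 with the block of runs and -0.44 with the *Xist* covariate. With a library left out the estimates ranged from -0.68 to 0.0497 (*Hk1*), -0.22 to 0.0220 (*Hk2*), -0.0192 to 0.22 (*Gpi1*), -0.30 to 0.0336 (*Pfkp*), -0.0769 to 0.0783 (*Aldoa*), -0.62 to 0.58 (*Pfkfb3*), -0.13 to 0.25 (*Gapdh*), -0.16 to 0.25 (*Pgam1*), -0.13 to 0.25 (*Pdhb*), -0.19 to 0.59 (*Pdp1*) and -0.78 to 1.16 (*Pdk2*). The cause of these moves was not tested.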
